A study of Mus musculus with 13 samples.

Results

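Autosomal CpG methylation was compared between female mouse induced pluripotent stem cells (iPSCs) labelled XaXa, with both X chromosomes active, and female iPSCs labelled XO, with a single X. The source label put 2 libraries in the first group (XaXa 7 and 8) and 4 in the second (XO 3, 5, 6 and 9), 6 of the 13 libraries of the series. The measure was reduced representation bisulfite sequencing (RRBS), in which bisulfite turns unmethylated cytosines into thymines when read and a restriction digest favours CpG-rich DNA. Autosomes 1 to 19 were divided into 1 kb tiles, and a tile was kept with at least 3 CpGs and 10 reads in each of the 6 libraries. This left 97153 of the 539151 autosomal tiles with a read CpG in any library. The level of a tile is the percent of its cytosine reads that were methylated, and a difference in level is given in percentage points.

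The libraries share their sex (female), their cell type and the removal of feeder cells before DNA was taken. The labels name no strain, reprogramming factors, passage, medium or clone, and nothing in them says which libraries are separate lines or cultures. All p-values here therefore refer to the spread among 6 libraries, some of it possibly technical. Libraries of male iPSCs (3) and male embryonic fibroblasts (MEF, 2) are outside the comparison. They served to class tiles and as a reference for depth and for the level of a few named windows.

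In mammals, DNMT3A and DNMT3B place new methyl groups on CpGs, DNMT1 with its partner UHRF1 copies them after replication, and the TET enzymes oxidise them. Most of the genome is methylated, while CpG islands, the CpG-dense stretches at many gene starts, are largely free of it. Female mouse pluripotent cells with a pair of active X chromosomes are known for a low genome-wide level. Germline gene promoters are a class known to be silenced by methylation in somatic cells.

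Read totals over CpGs ran from 4784488 (XO 9) to 143148634 (XaXa 8), and the median reads per kept tile were 88 and 675 in XaXa 7 and 8, against 81, 120, 471 and 22 in XO 3, 5, 6 and 9. Relative to male iPSCs, the median X depth was 1.44 and 1.54 in XaXa 7 and 8, against 1.34, 1.29, 1.08 and 1.44 in XO 3, 5, 6 and 9. Depth in XO 3, 5 and 9 was thus above that of the single male X, against their label, and neither XaXa library reached the depth of a doubled X. "XaXa" and "XO" here mean the labels. Among autosomes, chromosome 11 was at 1.29 in XO 6, and chromosome 8 at 0.899 to 0.936 in XaXa 7, XaXa 8, XO 6 and XO 9. A window placed at the promoter of the pluripotency gene Pou5f1, which is methylated in fibroblasts, was at 1.80% and 3.17% in XaXa, against 41.7%, 24.5%, 22.6% and 15.6% in XO 3, 5, 6 and 9. In MEF 4 and 5 it was at 32.4% and 58.1%, so that XO 3 lay within the fibroblast range; whether this bears on the autosomal difference was not tested. The window of Nanog held no read CpG.

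Promoter sequences are shown for 4 genes expressed in the germline whose tiles lost methylation, because their values span the results below from a low level to a high one (chosen after their values were seen). Each is the RefSeq sequence (GRCm38.p6) of the 250 bases upstream of the start, written 5′ to 3′ on the gene's strand, with CpGs in capitals. Its place in mm9 was found by matching the CpG spacing and neighbouring bases to the deposited CpG positions. Fkbp6, a chaperone of male meiosis, matched at chr5:135825784-135826033 on the minus strand. Tdrd1, a tudor protein of the piRNA pathway, matched at chr19:56900515-56900764 on the plus strand. Mael, which acts in transposon silencing in male germ cells, matched at chr1:168168876-168169125, and Tex101, a surface protein of germ cells, at chr7:25457070-25457319, both on the minus strand.
Fkbp6: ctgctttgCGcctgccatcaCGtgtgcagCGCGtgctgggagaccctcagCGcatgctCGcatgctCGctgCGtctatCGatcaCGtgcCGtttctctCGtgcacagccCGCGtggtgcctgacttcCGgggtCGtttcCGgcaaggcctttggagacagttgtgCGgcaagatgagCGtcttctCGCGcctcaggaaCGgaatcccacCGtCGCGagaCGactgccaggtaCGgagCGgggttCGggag
Tdrd1: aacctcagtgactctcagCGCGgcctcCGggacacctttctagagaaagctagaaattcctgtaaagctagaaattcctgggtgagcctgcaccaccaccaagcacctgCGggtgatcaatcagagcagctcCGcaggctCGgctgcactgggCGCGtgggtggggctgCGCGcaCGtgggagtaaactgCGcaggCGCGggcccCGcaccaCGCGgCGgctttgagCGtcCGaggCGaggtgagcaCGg
Mael: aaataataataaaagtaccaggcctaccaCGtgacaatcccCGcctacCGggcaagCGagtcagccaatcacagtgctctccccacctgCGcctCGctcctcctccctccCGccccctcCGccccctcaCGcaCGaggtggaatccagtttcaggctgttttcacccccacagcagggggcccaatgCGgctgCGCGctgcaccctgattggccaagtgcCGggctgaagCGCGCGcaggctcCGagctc
Tex101: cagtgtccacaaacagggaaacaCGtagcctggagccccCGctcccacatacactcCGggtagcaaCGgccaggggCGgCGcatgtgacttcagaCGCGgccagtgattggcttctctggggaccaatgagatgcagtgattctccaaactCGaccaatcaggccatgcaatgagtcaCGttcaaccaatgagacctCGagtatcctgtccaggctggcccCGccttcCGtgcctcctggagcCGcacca

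The printed stretches hold 29, 22, 18 and 14 CpGs. The placements used a longer stretch, from 250 bases before to 50 after the start, and rest on 18, 9, 22 and 15 deposited CpGs in it. The printed stretches of Fkbp6 and Mael run past the end of the tile whose level is given below, at 135826000 and 168169000. The sequence CACGTG, which is its own reverse complement, occurs, between 250 bases before and 50 after the start, in 7 of the 12 germline promoters measured below (Sycp1, Mael, Ddx4, Tdrd1, Hormad1, Brdt and Slc25a31). It occurs in 1283 of 11990 promoters placed at 1 autosomal site (10.7%) and in 7.15% of all promoters of the RefSeq table.

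Methylation was lower in XaXa over most of the measured autosomal tiles. The mean tile level was 36.4% and 29.2% in XaXa 7 and 8, against 56.5%, 54.1%, 54.7% and 48.8% in XO 3, 5, 6 and 9. Both XaXa libraries lay below all XO libraries. The group means were 32.8% ± 5.07 (SD, n = 2) and 53.5% ± 3.32 (SD, n = 4), a difference of -20.7 points and a ratio of 0.613. An exact two-sided permutation test over the 15 splits gave p = 0.0667, the smallest these splits allow, so that no comparison of library means here can pass 0.05. XaXa 8 was also lower than XaXa 7 (29.2% against 36.4%), while the XO libraries ran from 48.8% to 56.5%.

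The loss was alike on both sides of the read limit. Tiles with 10 to 12 reads in the shallowest library, just inside the limit, averaged 37.7% in XaXa, against 61.3% in XO, and those with 7 to 9 reads, just outside, 37.8% and 61.6%. With at least 50 reads (10623 tiles) the difference was -12.0 points, and with at least 10 CpGs (18460 tiles) it was -10.1 points. Tiles with at least 50 reads were more often low: 4860 of them were under 5% in male iPSCs, against 17181 of all 97153. In tiles at 80% or more in male iPSCs the ratio of XaXa to XO was 0.667 with at least 50 reads, against 0.659 at the 10-read limit. At 60% to 80% it was 0.552, against 0.584. With XO 6 as the only XO library, the difference was -21.9 points.

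The loss changed the shape of the distribution rather than its mean alone. In XO the tiles formed a low peak under 5% and a high peak at 80% to 85%. In XaXa the high peak was at 50% to 55% (XaXa 7) and 40% to 45% (XaXa 8). Tiles above 80% made up 0.814% and 0.0309% of tiles in XaXa 7 and 8, against 32.5%, 27.5%, 30.3% and 19.7% in XO 3, 5, 6 and 9. Tiles between 20% and 80% made up 67.7% ± 3.68 (SD, n = 2) in XaXa, against 48.0% ± 3.60 (SD, n = 4) in XO, and tiles under 20% made up 31.9% ± 4.23 and 24.5% ± 2.18. In each of these 3 shares the groups did not overlap (exact permutation p = 0.0667). The picture depends on the limits. With limits of 10% and 90%, the middle share differed by 2.25 points (exact permutation p = 0.4), and the low share overlapped between XaXa 7 (22.5%) and XO 9 (23.2%; exact permutation p = 0.2). The share above 90% was 0.0607% and 0% in XaXa 7 and 8, against 7.64%, 5.495%, 2.995% and 6.74% in XO 3, 5, 6 and 9. A level averages over the cells of a library, so a partly methylated tile and a mixture of cells cannot be told apart.

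**Figure D1:**
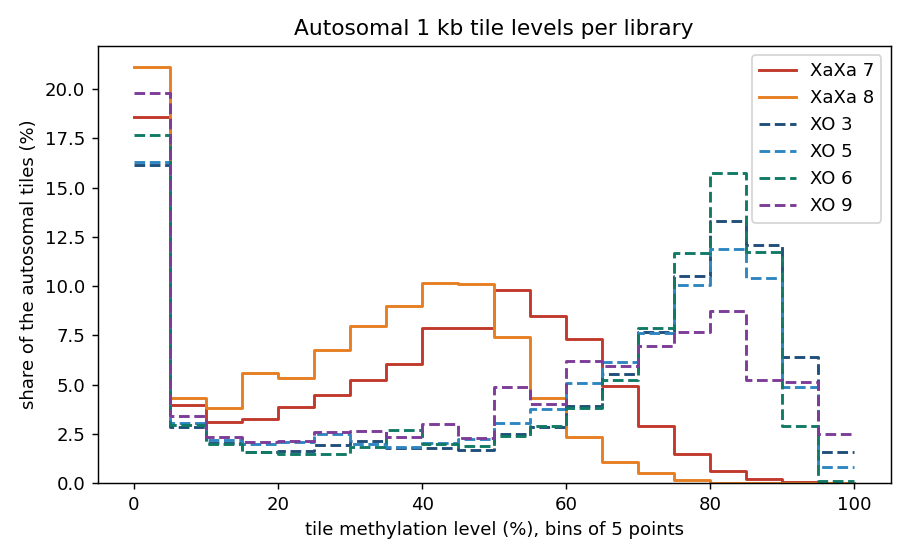
Share of the 97153 autosomal tiles (%, y axis) by tile methylation level in bins of 5 points (x axis), 1 line per library. The XO libraries (dashed) peak at 80% to 85%, where XaXa 7 has 0.617% and XaXa 8 has 0.0247% of its tiles.

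In a quasi-binomial model of the reads of each tile, with a call set at 0.05 for the Benjamini-Hochberg adjusted p and at 10 points or more for the size, 70117 tiles (72.2%) were lower and 14 (0.0144%) higher in XaXa. Each adjusted p of a tile or promoter below comes from this model. At an unadjusted p under 0.05 there were 77876 tiles in either direction, 282 of them with a higher mean in XaXa. Both XaXa libraries lay below all 4 XO libraries in 61950 tiles (63.8%) and above all 4 in 619 (0.637%). The median tile difference was -23.7 points, and the 5th and 95th percentiles were -39.8 and 0.2005 points. Of the lower tiles, 57613 had lost at least 20 points and 4625 at least 40 points. Of 55846 tiles at 60% or more in XO, 3651 were also at 60% or more in both XaXa libraries. Without XaXa 8, the deepest library, the model called 35184 tiles lower (36.2%). That fit, like every one below without XaXa 7 or XaXa 8, has 1 XaXa library, assumed to vary like the XO libraries. Fits without XO 3, 5 and 9 have 1 XO library, and their spread comes from the 2 XaXa libraries.

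**Figure D2:**
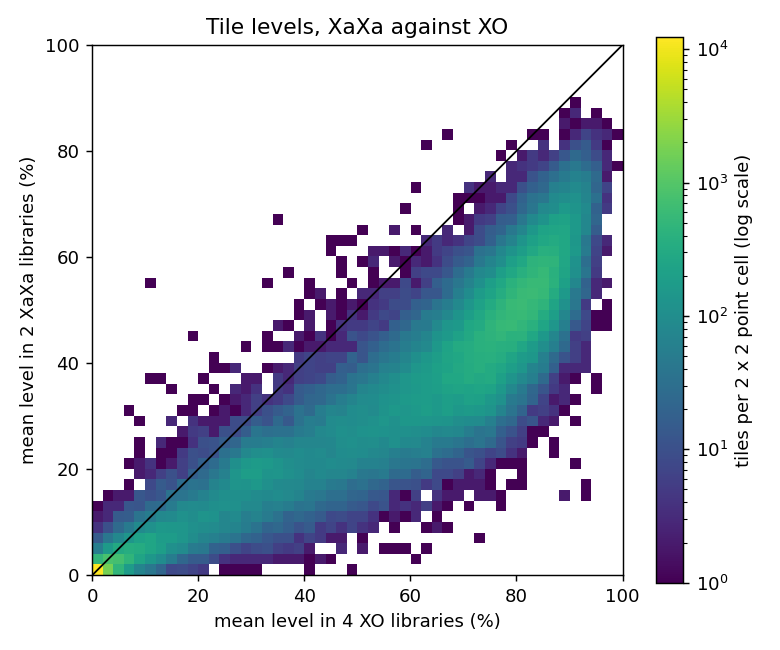
Mean level of each tile in the 2 XaXa libraries (%, y axis) against the 4 XO libraries (%, x axis), with the number of tiles per cell of 2 by 2 points in colour (log scale) and the line of equal levels in black. Most tiles lie below the line, and 7.56% of tiles have a higher mean in XaXa.

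By starting level, the loss grew from -0.55 points in tiles under 5% to -30.0 at 60% to 80% and was -28.3 at 80% or more, while the ratio of XaXa to XO stayed between 0.550 and 0.706. Tiles were classed by their level in male iPSCs, which take no part in the comparison (92401 tiles could be classed). In the class of 80% or more (25862 tiles) the means were 59.4% and 49.96% in XaXa 7 and 8, against 85.2%, 83.9%, 84.1% and 78.99% in XO 3, 5, 6 and 9, a ratio of 0.659. In this class 99.2% of tiles were called lower. The ratio was 0.584 at 60% to 80%, 0.550 at 40% to 60% and 0.573 at 20% to 40%, where the groups did not overlap either (exact permutation p = 0.0667, adjusted over 6 classes 0.1). At 5% to 20% the means were 10.9% and 7.06% in XaXa, against 19.6%, 17.5%, 15.1% and 10.4% in XO. XO 9 thus lay below XaXa 7 there, and the ratio was 0.574 (exact permutation p = 0.2). In tiles under 5% the groups overlapped as well, with 1.32% ± 0.352 (SD, n = 2) for XaXa against 1.87% ± 0.571 (SD, n = 4; exact permutation p = 0.2), and 28 of 17181 tiles were called lower. A call needs a loss of 10 points, more than the mean XO level of this class. With tiles classed by MEF level the ratios were 0.571 to 0.634. The difference in ratio between classes was not tested.

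Highly methylated tiles were spread more widely in XaXa than in XO 3, 5 and 6, though not than in XO 9. Among tiles at 80% or more in male iPSCs, the 5th and 95th percentiles of tile level were 41.6% and 76.9% in XaXa 7 and 35.1% and 66.0% in XaXa 8. They were 73.6% and 94.7% in XO 3, 71.8% and 93.5% in XO 5, and 75.2% and 91.5% in XO 6. In XO 9, with the fewest reads per tile, they were 57.1% and 96.7%.

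By CpG density, tiles with few CpGs lost most. Density is the number of CpGs of a tile read in any of the 13 libraries. In tiles with 3 to 5 CpGs (19216) XaXa 7 and 8 were at 47.2% and 38.5% and XO 3, 5, 6 and 9 at 73.3%, 71.6%, 70.96% and 63.8%, a difference of -27.1 points, and 92.8% of tiles were called lower. The difference was -25.2 points at 6 to 10 CpGs, -21.6 at 11 to 20 and -11.8 at 21 to 40. Above 40 CpGs (9845 tiles) it was -3.51 points, from a level of 8.19% ± 0.802 (SD, n = 4) in XO, and 11.2% of tiles were called lower. The groups did not overlap in any of these 5 classes (exact permutation p = 0.0667, also after adjustment). As a ratio the classes were between 0.572 and 0.618.

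To hold the starting level closer, the same classes were read among the 51749 tiles at 60% or more in male iPSCs, called methylated tiles here. The ratio was 0.622, 0.631, 0.626 and 0.589 from 3 to 5 up to 21 to 40 CpGs. In the 443 methylated tiles with over 40 CpGs it was 0.484. XaXa 7 and 8 were at 41.1% and 29.96% there, and XO 3, 5, 6 and 9 at 71.01%, 61.9%, 81.4% and 78.95%, a difference of -37.8 points. Each library's level in methylated tiles with over 20 CpGs, divided by its level in those with 3 to 5, was 0.922 and 0.889 in XaXa 7 and 8, against 0.952, 0.893, 1.03 and 1.06 in XO 3, 5, 6 and 9. XO 5 lay within the XaXa range, and the difference of -0.0777 had an exact permutation p of 0.2. It was -0.00929 with tiles at 80% or more in male iPSCs (exact permutation p = 0.667) and -0.158 with at least 50 reads (exact permutation p = 0.133).

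The densest methylated tiles shared a sequence feature. A run of 5 neighbouring read CpGs, taken with its spacing and the base on each side, was looked up over all autosomes. Of the 443 methylated tiles with over 40 CpGs, 431 (97.3%) held a run found at 10 or more places, with a median of 1487 places. The share was 73.9% at 21 to 40 CpGs and 17.8% over all methylated tiles. A tile takes the highest count among its runs, so the share rises with the number of CpGs in part by construction. No run was held by 71.3% of methylated tiles with 3 to 5 CpGs and by 26.1% of all methylated tiles. Such runs are repeated in the genome, and how reads that fit several places were treated is not given in the sources used here. In the class of 21 to 40 CpGs the ratio was 0.580 in tiles with a run at 10 or more places (2131 tiles), 0.631 with 2 to 9 places (148) and 0.611 with 1 place (605). Without tiles at 10 or more places, the ratio of dense (765 tiles) to sparse levels was 0.951 in XaXa and 0.963 in XO, a difference of -0.0120 (exact permutation p = 0.733). Of the tiles with over 40 CpGs, 9 with runs at 1 place and 3 at 2 to 9 places were left. This ratio thus rests almost wholly on the class of 21 to 40 CpGs and cannot speak to the densest class. This split was made after the data had been seen. Over all methylated tiles, the loss was -29.2 points with a run at 1 place and -29.4 with 10 or more.

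**Figure D3:**
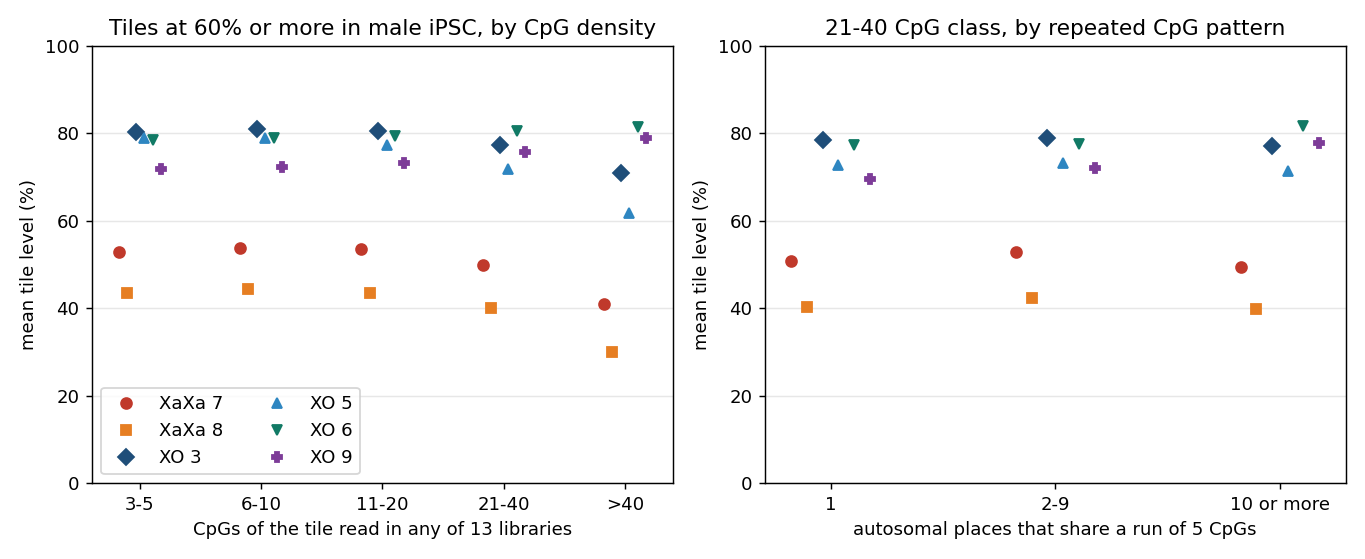
Left, mean level (%, y axis) of tiles at 60% or more in male iPSC by CpGs per tile (x axis), 1 point per library; right, the class of 21 to 40 CpGs by the number of autosomal places that share a run of 5 CpGs (x axis). XaXa 7 and 8 lie below all XO libraries in each class, at 41.1% and 29.96% in tiles with over 40 CpGs.

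By position, the loss in points was small at CpG-dense unmethylated tiles and grew away from them, as did the level in XO. These tiles, a stand-in for CpG islands, have over 40 CpGs and a level under 10% in both MEF libraries, and 7004 of 7440 were among the tiles compared. In them the mean was 0.957% ± 0.246 (SD, n = 2) for XaXa, that of XO 1.41% ± 0.386 (SD, n = 4), and the groups overlapped (exact permutation p = 0.267). At 1 to 2 kb XaXa 7 and 8 were at 9.49% and 6.92% and XO 3, 5, 6 and 9 at 16.97%, 15.3%, 13.95% and 11.5%, a difference of -6.22 points. The difference was -18.3 points at 3 to 5 kb, -20.4 at 6 to 20 kb and -23.8 beyond 20 kb, without overlap between groups (exact permutation p = 0.0667, adjusted 0.0833). Chosen for a low level, the tiles at distance 0 had little to lose in points. The XO mean rose from 14.4% at 1 to 2 kb to 61.9% beyond 20 kb. From distance 0 outward, the ratios of XaXa to XO were 0.678, 0.569, 0.593, 0.604 and 0.615. The level at 1 to 2 kb minus that beyond 20 kb was -29.8 points in XaXa and -47.4 in XO (exact permutation p = 0.0667). This contrast is in points, so it also carries the general difference in level between the groups.

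Among methylated tiles the difference was -30.1 points at 1 to 2 kb (305 tiles), -29.3 at 3 to 5 kb, -28.8 at 6 to 20 kb and -29.2 beyond 20 kb. As ratios these were 0.589, 0.607, 0.620 and 0.625. The level of methylated tiles at 1 to 2 kb divided by that beyond 20 kb was 0.890 and 0.883 in XaXa 7 and 8, against 0.969, 0.958, 0.919 and 0.917 in XO 3, 5, 6 and 9 (exact permutation p = 0.133).

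**Figure D4:**
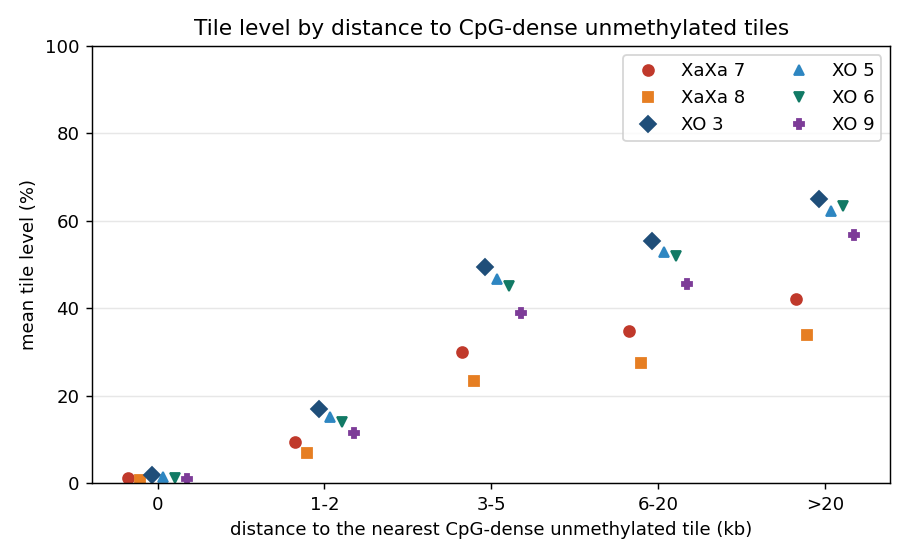
Mean tile level (%, y axis) by distance in kb to the nearest tile with over 40 CpGs and under 10% in MEF (x axis), 1 point per library. The libraries overlap at distance 0 and separate with distance, to -23.8 points beyond 20 kb, where the XO mean is highest (61.9%).

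Along and between chromosomes the loss varied little. The difference per chromosome ran from -21.9 points (chromosome 1) to -18.5 (chromosome 11), with ratios of 0.608 to 0.620 and no overlap between groups on any of the 19 (exact permutation p = 0.0667, also after adjustment). The XO level was 47.5% ± 3.50 (SD, n = 4) on chromosome 11 and 56.8% ± 3.23 on chromosome 1. Among methylated tiles the range was -29.7 to -28.7 points. Chromosomes 8 and 11, whose depth was uneven, were at -29.2 and -28.7 points there. The first 20 Mb, next to the centromere in mouse, had a difference of -21.4 points, the last 20 Mb -20.7 and the rest -20.6. In methylated tiles the level of the first 20 Mb over that of the rest was 1.02 in both XaXa libraries and 1.003 to 1.01 in XO, without overlap (exact permutation p = 0.0667). For the last 20 Mb it was 1.01 and 1.02 in XaXa, again above all XO libraries (0.997 to 1.01, exact permutation p = 0.0667).

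In all 1112 windows of 1 Mb with at least 20 methylated tiles, both XaXa libraries lay below all 4 XO libraries. The ratio was 0.626 in the median window, with 5th and 95th percentiles of 0.585 and 0.668. The lowest ratio was 0.522, on chromosome 3 at 6000001 to 7000000, and the highest 0.719, on chromosome 12 at 5000001 to 6000000. XaXa 7 and 8 were at 43.5% and 35.6% in the first of these windows (26 tiles), where XO 3, 5, 6 and 9 were at 75.1%, 69.95%, 82.1% and 76.03%. They were at 65.05% and 55.01% in the second (25 tiles), against 85.2%, 85.5%, 84.5% and 78.8% in XO. Over the 10 combinations of the base before and after, ratios among a subset of the CpGs of methylated tiles ran from 0.604 (A before and A after) to 0.640 (C before and A after). The combination of C before and G after held 13430 of these CpGs, and each of the others 389 to 970.

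The 10 tiles named for the largest loss, among tiles with at least 5 CpGs and 50 reads in each library and no overlap, had differences of -52.9 to -49.6 points. The first lies on chromosome 18 and is not described. The tile at chr16:98038001-98039000, which is not repeated by its CpG runs, was at 34.1% and 45.4% in XaXa 7 and 8, against 91.6%, 92.2%, 91.8% and 92.6% in XO 3, 5, 6 and 9 (difference -52.3 points, adjusted p = 2.15e-05). The XO libraries were close to each other there (SD 0.452). The nearest placed gene start was that of Prdm15, a zinc finger gene, 34.3 kb away. The tile at chr8:120372001-120373000 was at 22.4% and 14.2% in XaXa, against 55.99%, 63.04%, 84.5% and 71.2% in XO (difference -50.3 points, adjusted p = 5.34e-05), 46.6 kb from the start of Mphosph6. Of the 10 tiles, 6 held runs found at 1487 or 1598 places, and none held the start of a placed promoter.

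The 5 largest losses in tiles with over 40 CpGs were likewise repeated by their CpG runs and alike in level. The tile at chr2:21927001-21928000 was at 30.9% and 21.3% in XaXa, against 80%, 62.3%, 82.3% and 85.3% in XO (adjusted p = 2.34e-05). The tile at chr3:45945001-45946000 was at 26.3% and 24.1% in XaXa, against 70.05%, 61.1%, 82.95% and 86.8% in XO (adjusted p = 2.67e-05). In these tiles XO 5 was the lowest XO library, and it still lay above both XaXa libraries. Without XaXa 8, 8 of the 10 tiles of largest loss and 2 of these 5 were called, with differences of -51.4 to -43.99 points in those that were not.

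The share of promoter tiles called lower rose with their level in male iPSCs. Promoter sequences of 10498 autosomal genes were placed on the CpG map at a single site, and 7779 kept tiles held the start of one. Of these, 461 were lower (5.93%), and 1 was higher. Among promoter tiles under 20% in male iPSCs, 69 of 7112 were lower (0.970%), and among those at 20% to 60%, 201 of 285. Among the 178 at 60% or more, 176 were lower, with 46.4% and 35.5% in XaXa 7 and 8, against 76.8%, 72.6%, 72.7% and 65.1% in XO 3, 5, 6 and 9. The ratio was 0.571 there and 0.624 in other methylated tiles, where 98.8% were lower. The difference between these ratios was not tested.

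Among the gene lists, the germline genes had the most methylated promoter tiles. Of 20 listed genes 12 had a promoter tile that passed, and 10 of these were lower and 0 higher in XaXa, with a median difference of -20.3 points over the 12 against -0.171 over all promoter tiles and -23.7 over all tiles. All 12 were above 20% in male iPSCs (22.6% to 88.4%), so the shares of promoter tiles at 20% to 60% and at 60% or more, above, are the background for this count. Both XaXa libraries lay below all XO libraries in 8 of the 12. Without XaXa 8 the model called 4 (Mael, Tdrd1, Tex101 and Slc25a31), without XO 3, 5 and 9 it called 11, and limma called 6. These values are of the whole 1 kb tile that holds the start, not of the promoter window alone (250 bases before to 50 after the start), which was read more thinly.

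Tdrd1, at chr19:56900001-56901000, showed the largest loss of the list. It was at 21.4% and 16.5% in XaXa 7 and 8, against 86.2%, 60.9%, 58.1% and 50% in XO 3, 5, 6 and 9 (difference -44.9 points, adjusted p = 0.000224), from 10 to 212 reads per library. Asz1, another piRNA pathway gene, was at 27.3% and 17.6% in XaXa, against 60.7%, 53.2%, 48.1% and 48.7% in XO (adjusted p = 4.53e-05). Mael was at 9.88% and 7.495% in XaXa, against 34.8%, 27.8%, 30.3% and 18.3% in XO (adjusted p = 2.12e-05). In these tiles the groups did not overlap. In the promoter window of Mael, XO 9 was at 3.85% (26 reads), below XaXa 7 and 8 at 9.04% and 6.47%, while XO 3, 5 and 6 were at 27.1%, 23.8% and 23.1%.

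Among genes of meiosis, Hormad1, a protein of the chromosome axis, was at 25.6% and 13.96% in XaXa, against 51.3%, 41.05%, 44.2% and 28.1% in XO (adjusted p = 4.5e-05). Its promoter window was lower in level, at 6.25% and 5% in XaXa, and overlapped, with 18.2%, 5.88% and 18.4% in XO 3, 5 and 6. Sycp1, a synaptonemal complex protein, was at 44.2% and 27.5% in XaXa, against 77.2%, 66.2%, 50.6% and 50% in XO (adjusted p = 0.00253). It kept no call without XaXa 8 (adjusted p = 0.432) or with limma (adjusted p = 0.0578). Slc25a31, a sperm ADP/ATP carrier, was lower, with 19.2% ± 6.39 (SD, n = 2) for XaXa against 43.3% ± 8.26 (SD, n = 4; adjusted p = 2.27e-05). Tex101 kept the most methylation of the non-overlapping genes, at 61.1% and 46.9% in XaXa against 85.3%, 79.6%, 78.8% and 87.8% in XO (adjusted p = 3.84e-05).

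The promoter tiles of the remaining germline genes showed smaller differences, and all but that of Rpl10l overlapped between groups. Dazl, an RNA-binding protein of germ cells, was at 13.4% and 8.15% in XaXa, against 41.3%, 30.1%, 30.1% and 8.33% in XO, so that XO 9 lay at the XaXa level. It was called lower (difference -16.7 points, adjusted p = 3.91e-05), as were Brdt, a testis bromodomain gene (-14.9 points, adjusted p = 0.00129), and Rpl10l, a testis ribosomal protein gene (-14.7 points, adjusted p = 0.000734). At the promoter window of Dazl, XaXa 7 and 8 were at 20% (10 reads) and 25.7%. XO 3, 5 and 6 were higher there, at 75% (12 reads), 85.7% and 46.9%, and XO 9 had 0 reads. In the promoter window of Brdt, only XaXa 8 (41.7%, 12 reads) and XO 6 (12.5%, 16 reads) had at least 10 reads, and their order was opposite to that of the tile. In the window of Rpl10l, XO 3 (11.8%) lay below XaXa 7 (14.7%). The tiles of Dazl, Brdt and Rpl10l were not called without XaXa 8, with limma or with reads scaled down to at most 100. Ddx4, the germ cell helicase, had a difference of -8.03 points (adjusted p = 0.0511). Dmrtb1, a regulator of entry into meiosis, had -9.43 points (adjusted p = 0.000256), short of the 10 points required.

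**Figure D5:**
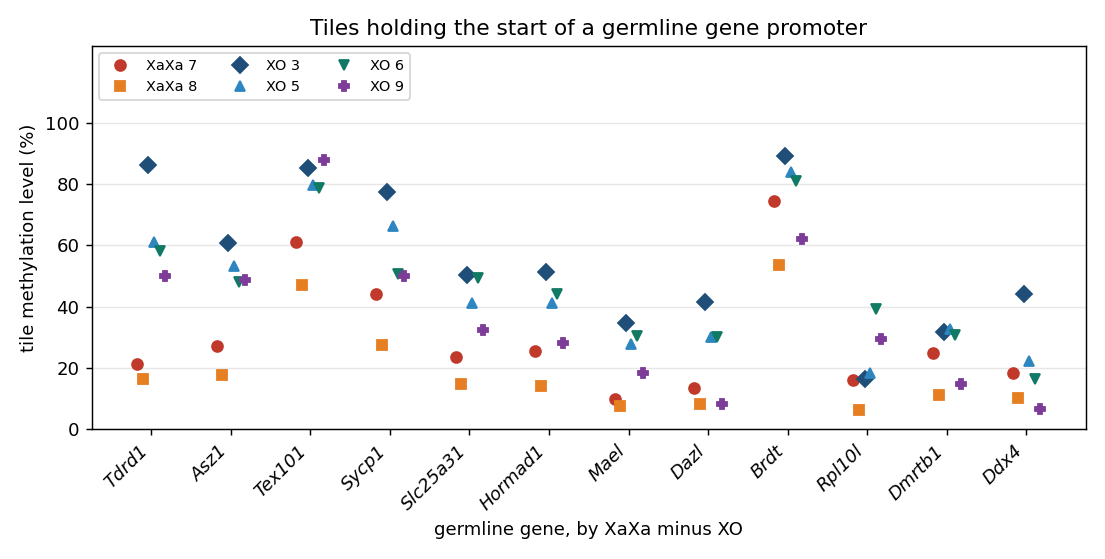
Methylation level (%, y axis) of the tile that holds the start of each of 12 germline genes (x axis, from the largest loss to the smallest), 1 point per library. Tdrd1 differs by -44.9 points and Ddx4 by -8.03 points, and XO 9 lies below XaXa 7 at Dazl, Brdt, Dmrtb1 and Ddx4.

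Promoters of the methylation enzymes were at low levels in both groups. Promoter tiles passed for 7 of 8 genes (10 tiles, Dnmt3l not among them), and 0 were called. A lower call needs a loss of 10 points, which a tile with an XO mean under 10% cannot show. Only a tile of Uhrf1 had an XO mean above that (11.8%), so for the rest the lack of a lower call says nothing. Dnmt1 was at 0% and 0.436% in XaXa, against 0% in each XO library. A tile of Dnmt3a was at 0.794% ± 0.102 (SD, n = 2) in XaXa, against 2.94% ± 1.45 (SD, n = 4) in XO (adjusted p = 0.00951, under the 10 points required). In Dnmt3b, the highest level in any library was 1.27% (XO 9), and in Tet1 and Tet2 no library reached that level. A tile at 1 of the 2 starts of Uhrf1 was the exception in level, with 10.53% and 1.54% in XaXa, against 10.7%, 10.6%, 15.8% and 10% in XO (difference -5.76 points, adjusted p = 0.0303). The promoter window of this start was at 0% in XaXa 8, XO 5 and XO 6 (10 to 17 reads). The other libraries had under 10 reads in that window. Without XaXa 7, 1 of the 10 tiles was called lower. The housekeeping promoters that passed (Gapdh, Eef1a1, Rplp0 and Ppia, 4 of 8 genes) had XO means of 0.0776% to 0.995%, and 0 were called. These levels left no room for a lower call.

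Of 16 pluripotency genes, promoter tiles of 3 passed. Klf4 was at 0.522% ± 0.251 (SD, n = 2) in XaXa, against 0.348% ± 0.281 (SD, n = 4) in XO, and Tfcp2l1 at 1.49% ± 1.18 and 1.13% ± 1.33. Esrrb, a nuclear receptor of the pluripotency network, was lower, at 9.23% and 10% in XaXa 7 and 8, against 60%, 32.1%, 23.5% and 26.7% in XO 3, 5, 6 and 9 (difference -26.0 points, adjusted p = 0.00795). It was not called without XaXa 8 (adjusted p = 0.183) or without XO 3, 5 and 9 (adjusted p = 0.0934).

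The largest promoter losses outside the lists, by a rule added after the data had been seen (the tile rule above applied to promoter tiles), began with Fkbp6. Its tile at chr5:135825001-135826000 was at 35.2% and 23.02% in XaXa 7 and 8, against 81.02%, 64.2%, 72.9% and 84.0% in XO 3, 5, 6 and 9 (difference -46.4 points, adjusted p = 2.15e-05). A1cf, a cofactor of apolipoprotein B mRNA editing, was at 43.8% and 30.5% in XaXa, against 76.3%, 74.5%, 74.03% and 86.6% in XO (difference -40.7 points). Tuba3b, a testis tubulin, was at 40.2% and 34.2% in XaXa, against 82.1%, 79.7%, 85.5% and 48.1% in XO. All 12 promoter tiles named by this rule were also called without each XO library in turn, with limma and with reads scaled down. The rule took the largest losses without overlap in these same libraries, which favours such calls.

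The tiles that went the other way were few. The tile at chr17:89003001-89004000 was at 71.4% and 39.7% in XaXa 7 and 8, against 6.25%, 19.4%, 14.4% and 6.67% in XO 3, 5, 6 and 9 (difference 43.8 points, adjusted p = 0.00157), with 94.1% in MEF. The tile at the start of Mgmt, a DNA repair methyltransferase, at chr7:144086001-144087000, was at 39.4% and 22.9% in XaXa, against 8.33%, 15.2%, 1.13% and 0% in XO (means 31.2% and 6.16%, adjusted p = 0.00552). Neither pair of groups overlapped, and the SD between the XaXa libraries was 22.5 and 11.6 points. Of the 5 higher tiles with the largest difference, 1 was called without XaXa 8, 3 without XO 6 and 4 with limma.

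Among 2882 tiles at 60% or more in XO with at least 5 CpGs and 50 reads, the 5 smallest losses, given as a description, include chr5:115405001-115406000 and chr1:157612001-157613000. The first was at 72.7% and 71.4% in XaXa, against 92.2%, 91.8%, 36.6% and 62.7% in XO, and its difference of 1.23 points became -10.2 points without XO 6. The second was at 81.5% and 70.8% in XaXa, against 83.98%, 86.2%, 86.04% and 83.3% in XO, a difference of -8.75 points. It was high in every library and lay 23.3 kb from the start of Lhx4, a homeobox gene.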

How the data were processed

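CpG tables of 13 RRBS libraries were used. The counts of all and of methylated reads per CpG were deposited by the authors without normalization, per the file headers. The deposited fraction, methylated over all reads, served only as a check. The submitters' processing notes name BSMAP and mm9; no version, trimming or filter is given in the sources used here. Since RRBS reads share start sites, PCR copies cannot be told apart, and a read over several CpGs counts at each.

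Reads were summed over 1 kb tiles with at least 3 CpGs and 10 reads in each of 6 libraries. Library means weigh tiles equally and were compared by exact two-sided permutation. The tile model is quasi-binomial with limma's moderated dispersion (squeezeVar), kept at 1 or above, an F test and Benjamini-Hochberg adjustment over all tiles; deep libraries weigh more. It was tested on simulated data. Named tiles follow a written rule, with at least 5 CpGs and 50 reads in each library for losses. They are the 10 largest losses without overlap, 5 with over 40 CpGs, and the 5 smallest losses at 60% or more in XO. The 5 largest gains were taken among all tiles called higher, without these limits. RefSeq promoters (250 bases before to 50 after the start) with at least 5 CpGs were placed on the mm9 CpG positions by spacing and flanking bases. Of 12331 single placements, 12319 fell on the annotated chromosome. The gene lists were to be read only with an mm9 annotation, so this placement and the reading of promoter tiles were added after the data had been seen. Members and lists were chosen with earlier results of these data known. Exon, intron and repeat annotation was not used here. Alternatives covered read and CpG limits, tile size, libraries, test and class definitions. Python 3.11.15, numpy 2.4.6, pandas 2.3.3, R 4.3.3 and limma 3.58.1 were used.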

Additional observations from a re-analysis of the deposited data

Results flagged for a closer look

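In 7 of 116 values checked, 1 of the 4 XO libraries stood apart from the other 3; chance gives about 1 in 20. XO 9, the shallowest library, was low in 3: at 38.5% in the tile on chromosome 7 at 60549001, at 48.1% in the Tuba3b tile and at 14.7% in the Dmrtb1 tile. XO 6 was high in 4 promoter tiles: at 15.8% in that of Uhrf1, and close to 0 like the rest in those of Tet1 (0.260%), Rplp0 (0.580%) and Ppia (0.311%), where the other XO libraries were at 0.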

How the results depend on the processing

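Of 306 alternative values, 0 reversed in direction, and 17 of the counts of tiles moved by more than 1.5 times. The exact tests cannot pass 0.05 under any alternative, so their side of the threshold says nothing about stability, and sizes did move: the mean difference of -20.7 points was -12.0 with at least 50 reads and -10.1 with at least 10 CpGs, and the share at 20% to 80% differed by 19.7 points but that at 10% to 90% by 2.25. In tiles at 80% or more in male iPSCs, the ratio of XaXa to XO was 0.659, and 0.667 with at least 50 reads. By median gap between CpGs in place of their number, the densest class differed by -7.40 points. Tiles lower in XaXa numbered 35448 with at least 20 reads, 4462 with at least 50, 33849 with at least 5 CpGs, 6440 with at least 10, and 2552 with only CpGs of at least 10 reads in all 6 libraries, where fewer tiles were tested (65.1%, 42.0%, 60.8%, 34.9% and 57.6% of them). Leaving out 1 library at a time gave 35184 (without XaXa 8) to 72137 lower tiles and 7 (without XO 6) to 50 (without XO 5) higher tiles. Higher tiles numbered 7 with at least 20 reads, 1 with at least 50, 2 with at least 10 CpGs, 2 with only CpGs of at least 10 reads, 8 at a 20 point minimum, 219 without a minimum, 7 with limma, 6 with reads scaled down to at most 100 and 183 without XO 3, 5 and 9. The cause of these was not tested. The mean difference was -24.3 to -17.1 points without 1 library. XO 9, at a median of 22 reads per tile, limits which tiles are kept. No paired analysis was possible because the XaXa and XO libraries share no replicate number.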
